A study of Drosophila melanogaster with 12 samples.

Results

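The Vha genes encode the vacuolar ATPase of Drosophila melanogaster, and their transcripts were compared between heads of flies with neuronal expression of a mutant human tau and heads of driver-only controls. The genes were chosen by name: every row of the deposited gene table whose FlyBase symbol starts with Vha was taken, which gave 32 of 13515 genes. Of these, 16 are subunit genes known to be widely expressed, 15 are paralogs known to be restricted to a few tissues, and 1, VhaAC45RP, stands in neither list. The name table holds 33 such symbols, and the remaining one, Vha44 for subunit C, was not analysed here. ATP6AP2, whose older symbol was VhaM8.9, falls outside the rule and is given beside the members.

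Tau flies had the genotype Elav-Gal4/+;UAS-tauR406W/+ and control flies had Elav-Gal4/+. Both therefore carry the Elav-Gal4 driver, which is active in neurons, and the controls carry no UAS transgene. Each group had 6 libraries (A to F), and each library was made from 18 heads, male and female pooled, frozen on day 10 of adulthood. RNA was depleted of ribosomal RNA and sequenced in strand-specific libraries. In whole heads, fewer cells of a type and less RNA per cell cannot be told apart, and the transgene is expressed in neurons while the RNA comes from every cell of the head.

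The vacuolar ATPase is a rotary proton pump. Its cytosolic sector, V1, splits ATP and turns a central shaft, and its membrane sector, V0, carries protons through the membrane as a ring of c subunits rotates. The pump acidifies endosomes and lysosomes, where it keeps hydrolases active, and in neurons it charges synaptic vesicles with the proton gradient that transmitter uptake runs on. Several subunits are encoded by paralogs, and the paralog of subunit a in particular is known to set the compartment in which the pump works.

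Each library's deposited values summed to 24.7 to 26.7 M in the tau group and to 25.9 to 30.2 M in the control group. The lowest values piled up near the value of about 1 read pair, 0.645 to 1.50 depending on the library, which puts depth at an estimated 25.6 to 41.3 M read pairs in tau libraries and 20.2 to 33.3 M in controls. Tau B, control E and control F stood apart: they listed 195, 433 and 484 genes at 0, where the other 9 libraries listed 1492 to 3013, and results that rest on them are given with and without them. Markers of neurons (5 genes) and photoreceptors (4 genes) were present in every library and none of them was called between the genotypes. The summed neuron markers ran from 86508 to 107714 in tau libraries and from 74561 to 123139 in controls. The haemocyte markers summed to 8510 to 10458 in every tau library against 11414 to 16981 in every control, without overlap. Of the 5, eater and Sr-CI were called lower, where 3.13% of all tested genes were called lower. Hml, the highest of the 5 and the largest part of the sum, overlapped between the groups. It was not called (log2 fold change -0.19 ± 0.15 SE, adjusted p = 0.59). He, the lowest of the 5, was at 0 in tau E. All 6 fat body genes had log2 fold changes below 0 (median -1.07), and 1, the female-biased fit, was called lower (-2.41 ± 0.39 SE, adjusted p = 0.00178). Of these genes, Yp1, Yp2, Yp3 and fit are also markers of females. For them, less fat body RNA and a smaller share of females in the pools cannot be told apart. The yolk protein genes, markers of females, were 1.88-fold lower in tau for Yp1, 2.33-fold for Yp2 and 1.85-fold for Yp3. Each had an unadjusted p under 0.05 and did not pass after adjustment (limma, adjusted p = 0.259, 0.0706 and 0.185). With tau and control libraries of the same letter taken as pairs, each of them passed in limma, as given in the last section. The gene w, whose mini-white copy marks fly transgenes, was called higher (log2 fold change 0.51 ± 0.13 SE, adjusted p = 0.0297), a call lost without any one of tau E or F or control A, C, E or F.

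The pump genes covered a wide range of levels in heads. To compare genes, values were divided by exon length, as normalised counts per kb. Vha16-1, the c subunit of the proton ring, was by far the highest, with 15596 ± 1381 per kb in tau heads and 16528 ± 1000 per kb in control heads (SD, n = 6 each), and ranked 108 among 10769 genes with a length. Vha55, the B subunit of V1, followed with 4604 ± 194 per kb in tau heads and 4314 ± 256 per kb in controls. A gene was tested where its values averaged 10 or more over the 12 libraries; 22 Vha genes passed this filter, and 18 of them lay above the median level of all tested genes with a length.

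Below these, averaged over all 12 libraries, came Vha13 (3598 per kb), Vha26 (2982), VhaAC39-1 (2823), VhaAC45 (2390) and VhaPPA1-1 (2224). They were followed by VhaAC45RP (2025 per kb), Vha68-2 (1986), Vha100-1 (1854), Vha68-1 (1339), Vha36-1 (1331), Vha14-1 (1264), VhaM9.7-b (1072), VhaSFD (995), VhaM9.7-a (823) and Vha100-2 (677). Most neighbours in this order overlapped: VhaAC45RP, for example, exceeded Vha68-2 in 6 of 12 libraries and Vha26 exceeded VhaAC39-1 in 8 of 12. The ranges of neighbouring genes stood apart between Vha16-1 and Vha55, between Vha100-1 and Vha68-1, between VhaM9.7-c and Vha36-3, and between Vha36-3 and Vha100-4. With the longest annotated transcript as the length, Vha68-2 (2165 per kb) and VhaSFD (1125 per kb) moved by more than their SD, and VhaSFD then exceeded VhaM9.7-b in 9 of 12 libraries.

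**Figure D1:**
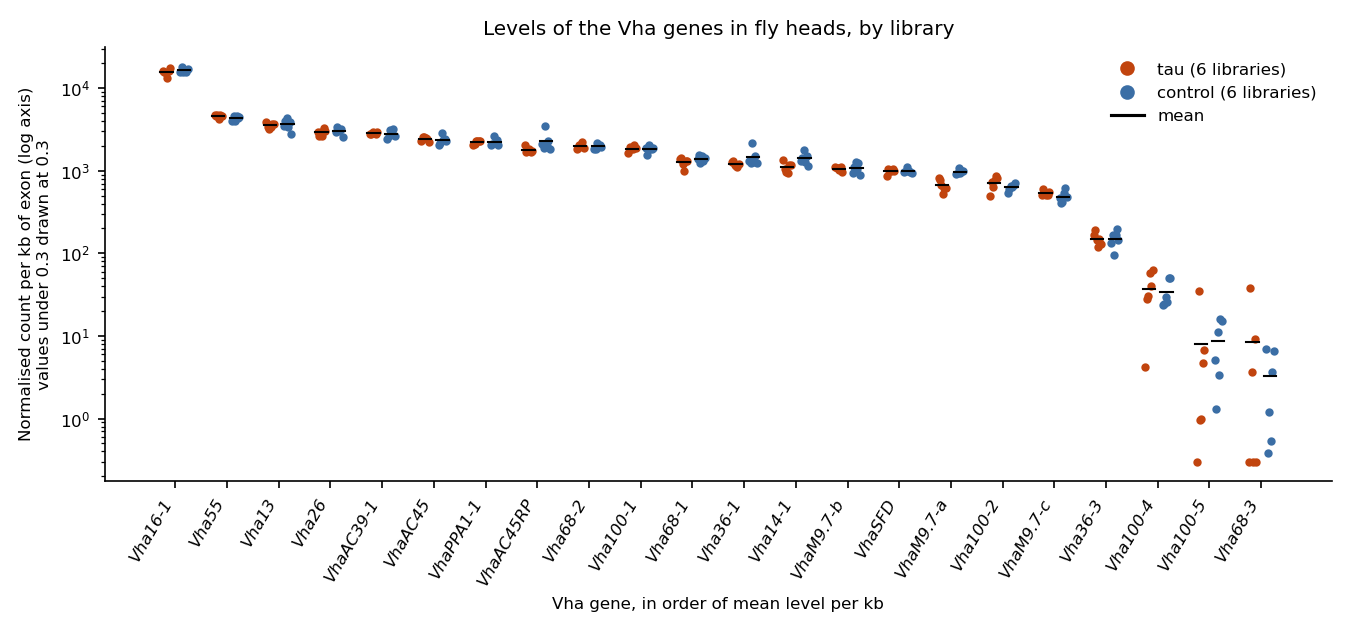
Normalised count per kb of exon (log axis) of the 22 Vha genes that passed the filter, in order of mean level, with each tau and control library as a point and the group mean as a bar; values under 0.3 are drawn at 0.3. Vha16-1 stands above all others near 16062 per kb, 17 further genes lie between 510 and 4459 per kb, and the 4 lowest are restricted paralogs.

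Where a subunit has several genes, their shares of the subunit's transcripts per length were as follows. Subunit A was split between Vha68-2, with 60.9 ± 4.27% in tau heads and 58.4 ± 3.52% in controls, and Vha68-1, which made up nearly all of the rest. Subunit a was mainly Vha100-1, the form best known from fly neurons, with 71.0 ± 3.27% in tau heads and 73.1 ± 2.61% in controls. Vha100-2 made up 27.2 ± 2.49% of subunit a in tau heads and 25.1 ± 2.18% in controls. Subunit c came almost wholly from Vha16-1, at 99.8% of its transcripts in tau heads and 99.9% in controls. Closely related copies such as Vha68-1 and Vha68-2 can share reads, and their split rests on how the authors' quantification divided such reads.

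The comparison of genotypes asked whether pump transcripts change with neuronal tau. Of the 22 tested Vha genes, 1 was lower in tau heads, VhaM9.7-a for the small membrane subunit e (1.48-fold), and 0 were higher; calls are those of limma at a Benjamini-Hochberg adjusted p below 0.05, over all 10845 tested genes. Over all tested genes 3.13% were called lower and 2.1% were called higher, so that 1 of 22 lower and 0 of 22 higher are shares near the background. At an unadjusted p under 0.05 the count was 3 of 22 lower and 0 of 22 higher, where 9.55% of all tested genes were lower and 8.63% were higher. The median log2 fold change of the 22 genes was -0.02, with 10 above 0 and 12 below, against 0.01 over all tested genes. VhaM9.7-a was also the only tested Vha gene whose tau and control libraries did not overlap; 1.8% of all tested genes were lower in tau without overlap and 1.58% were higher.

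**Figure D2:**
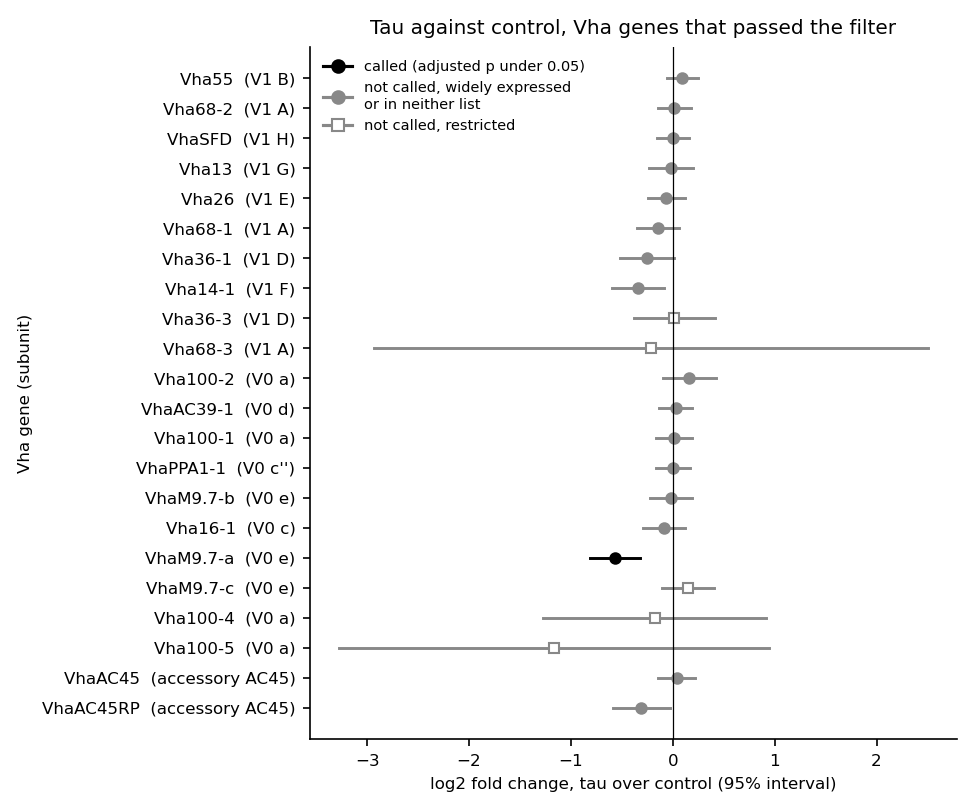
Log2 fold change of tau over control with its 95% interval for each tested Vha gene, grouped by V1, V0 and accessory subunits. VhaM9.7-a (-0.56) is the only one called, and the intervals of Vha68-3, Vha100-4 and Vha100-5 are the widest.

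The V1 sector showed no called gene among the 8 widely expressed members, whose median log2 fold change was -0.04. Vha55, the nucleotide-binding B subunit, had values from 11807 to 13291 (median 12976) in tau libraries and from 11082 to 12671 (median 12263) in controls. The groups overlapped, with a log2 fold change of 0.09 ± 0.07 SE (adjusted p = 0.548). For the catalytic A subunit, Vha68-2 had a log2 fold change of 0.01 ± 0.08 SE (adjusted p = 0.961) and Vha68-1 of -0.14 ± 0.10 SE (adjusted p = 0.482). Vha68-1 reached its lowest value, 2633, in tau D, and its other tau values of 3230 to 3777 lay inside the control range of 3303 to 4127 but for tau C.

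In the peripheral stalks that hold V1 in place, Vha26 (subunit E) averaged 8536 ± 796 in tau heads and 8912 ± 794 in controls, a log2 fold change of -0.06 ± 0.09 SE (adjusted p = 0.788). Vha13 (subunit G) averaged 3355 ± 222 in tau heads and 3431 ± 533 in controls, a log2 fold change of -0.02 ± 0.10 SE (adjusted p = 0.955). VhaSFD (subunit H), a regulatory subunit, averaged 2816 ± 189 in tau heads and 2813 ± 163 in controls, and its 95% interval ran from -0.15 to 0.16 on the log2 scale (adjusted p = 0.999). VhaSFD encloses mir-1006 on the same strand.

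The central shaft held the most negative log2 fold changes among the widely expressed V1 genes. Vha14-1 (subunit F) ran from 622 to 879 (median 739) in tau libraries and from 762 to 1169 (median 909) in controls. Most tau libraries lay below most controls, but the groups overlapped, at a log2 fold change of -0.34 ± 0.12 SE (1.27-fold lower, unadjusted p = 0.0115, adjusted p = 0.121 in limma). Vha36-1 (subunit D) ran from 1187 to 1392 (median 1263) in tau libraries and from 1316 to 2288 (median 1386) in controls. The log2 fold change came to -0.25 ± 0.12 SE (adjusted p = 0.294). Control C alone held the value of 2288, and without that library the log2 fold change of Vha36-1 was -0.14 (adjusted p = 0.431).

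In the V0 sector, 1 of 7 widely expressed genes was called and the median log2 fold change was 0.00. Vha16-1 averaged 47990 ± 4250 in tau heads and 50856 ± 3076 in controls, a log2 fold change of -0.09 ± 0.10 SE (adjusted p = 0.716). VhaPPA1-1, the c″ subunit of the same ring, had a log2 fold change of 0.00 ± 0.08 SE (adjusted p = 0.998). VhaAC39-1, subunit d, which joins the shaft to the ring, had one of 0.03 ± 0.08 SE (adjusted p = 0.898), with values from 4953 to 5272 in tau libraries and from 4328 to 5668 in controls. Its tau libraries varied least of all 17 genes in the widely expressed list or in neither list, with a coefficient of variation of 2.84%.

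Among the a subunits, Vha100-1 ran from 5376 to 6691 (median 6134) in tau libraries and from 5076 to 6837 (median 6136) in controls. The groups covered the same range, and the log2 fold change was 0.01 ± 0.08 SE with a 95% interval from -0.16 to 0.18 (adjusted p = 0.975). Vha100-2 ran from 1609 to 2778 (median 2414) in tau libraries and from 1721 to 2318 (median 2063) in controls. Tau A held the lowest of these values and 4 tau libraries exceeded every control, for a log2 fold change of 0.16 ± 0.12 SE (adjusted p = 0.55). The log2 ratio of Vha100-2 over Vha100-1 was -1.42 ± 0.20 in tau heads and -1.57 ± 0.18 in controls (SD, n = 6 each), a difference of 0.15 ± 0.11 SE (exact permutation test, adjusted p = 0.435 over 9 paralog ratios).

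VhaM9.7-a encodes subunit e, a small hydrophobic protein of the V0 sector. The gene (FBgn0035521) lies on chromosome 3L at 4262705 to 4263464 of dm6, on the plus strand. Its values ran from 369 to 576 (median 455) in tau libraries and from 658 to 765 (median 686) in controls. Every tau library was below every control, with tau A and tau B the highest of the tau group. It averaged 474 ± 78.7 in tau heads and 695 ± 42.6 in control heads (SD, n = 6 each), which was 1.48-fold lower in tau (log2 fold change -0.56 ± 0.12 SE, 95% interval -0.81 to -0.32, adjusted p = 0.00982 in limma). Leaving out any one library gave log2 fold changes from -0.62 to -0.50 with adjusted p from 0.00643 to 0.0258. Without tau B, control E and control F together it was -0.60, and the call was lost at an adjusted p of 0.0502. The summed haemocyte markers were also lower in every tau library, as given above. Eaat1, a glial glutamate transporter, was lower at -0.53 ± 0.11 SE (limma, adjusted p = 0.00893) and was the only one of 5 glial markers called. Of the 5, 4 had log2 fold changes below 0, and repo was at 0.03 ± 0.11 SE (limma, adjusted p = 0.938). The summed glial markers ran from 46500 to 52445 in tau libraries and from 52340 to 63487 in controls. Gs2, the largest part of the glial sum, was not called (-0.12 ± 0.10 SE, limma, adjusted p = 0.572). The part of either cell type in the VhaM9.7-a result was not tested.

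The other e subunit genes were not called. VhaM9.7-b ran from 1165 to 1369 (median 1317) in tau libraries and from 1092 to 1532 (median 1314) in controls. Its groups overlapped throughout, with a log2 fold change of -0.02 ± 0.10 SE (adjusted p = 0.948). VhaM9.7-c ran from 427 to 513 (median 441) in tau libraries and from 342 to 519 (median 401) in controls, a log2 fold change of 0.15 ± 0.12 SE (adjusted p = 0.587). VhaM9.7-c overlaps Teh2 on the same strand, so that its reads are uncertain. A ratio of paralogs within a library does not depend on how libraries were scaled. The log2 ratio of VhaM9.7-a over VhaM9.7-b was -1.46 ± 0.20 in tau heads and -0.91 ± 0.17 in controls, without overlap, a difference of -0.54 ± 0.11 SE. Its exact two-sided permutation p was 0.00216, the smallest that 6 against 6 libraries can give, and the adjusted p over 9 paralog ratios was 0.0195. It was the only one of the 9 ratios to pass at an adjusted p under 0.05; it rests on the same VhaM9.7-a values as the fold change. Without tau B, control E and control F it was -0.55 (exact permutation test, adjusted p = 0.143). There 5 against 4 libraries give an exact p of 0.0159 at the least, and a single ratio at that p cannot pass the adjustment over 9.

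As shares of the e subunit transcripts per length, VhaM9.7-a made up 29.2 ± 2.68% in tau heads and 38.5 ± 2.45% in controls. VhaM9.7-b made up 46.8 ± 2.69% in tau heads and 42.3 ± 2.97% in controls, and VhaM9.7-c made up 23.5 ± 1.77% in tau heads and 19.0 ± 2.55% in controls. The reads of VhaM9.7-c are uncertain, as given above, and these shares depend on them. The largest share of VhaM9.7-a in a tau library was 33.2% and the smallest in a control was 34.9%.

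**Figure D3:**
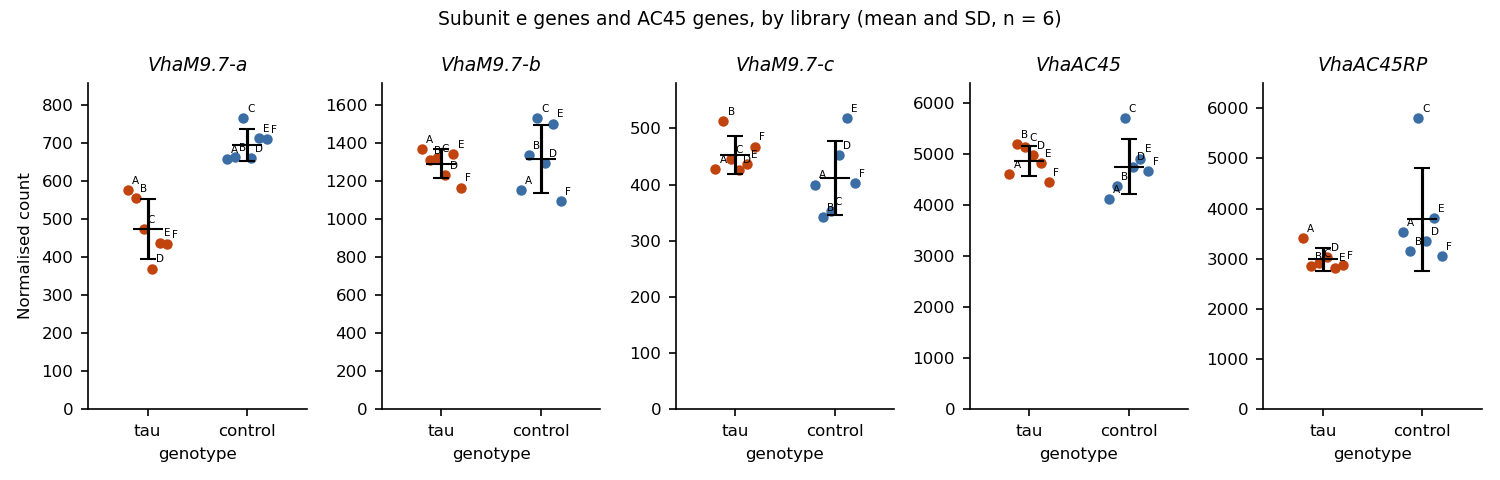
Normalised counts of the subunit e genes and the AC45 genes in each library (letters), with the mean and SD of 6 libraries per genotype. VhaM9.7-a is the only one whose tau libraries (369 to 576) and control libraries (658 to 765) do not overlap, and control C stands above the other controls for VhaAC45RP at 5809.

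The accessory subunits assist assembly and trafficking of the pump. VhaAC45 averaged 4864 ± 294 in tau heads and 4758 ± 547 in controls, a log2 fold change of 0.04 ± 0.08 SE (adjusted p = 0.881). VhaAC45RP, a relative of VhaAC45, made up 42.5 ± 2.64% of the AC45 transcripts per length in tau heads and 48.4 ± 3.97% in controls. Its values ran from 2822 to 3412 (median 2893) in tau libraries and from 3059 to 5809 (median 3439) in controls. Tau A was the only tau library above the lowest control, for a log2 fold change of -0.31 ± 0.13 SE (unadjusted p = 0.0315, adjusted p = 0.213 in limma). Without control C, which held the value of 5809, it was -0.18 (adjusted p = 0.256).

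The log2 ratio of VhaAC45RP over VhaAC45 was -0.70 ± 0.16 in tau heads and -0.36 ± 0.23 in controls, a difference of -0.35 ± 0.11 SE that did not pass (exact permutation test, p = 0.013, adjusted p = 0.0584 over 9 ratios). It passed without tau A (-0.40, exact permutation test, adjusted p = 0.0195). ATP6AP2, the other accessory subunit, ran from 5688 to 7444 in tau libraries and from 5497 to 9575 in controls, a log2 fold change of -0.21 ± 0.12 SE (adjusted p = 0.361).

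The remaining paralog ratios did not pass (exact permutation tests, adjusted over 9). Vha68-1 over Vha68-2 differed by -0.16 ± 0.14 SE between tau and control on the log2 scale (exact permutation test, adjusted p = 0.435), VhaM9.7-c over VhaM9.7-b by 0.17 ± 0.13 SE (adjusted p = 0.435) and Vha36-3 over Vha36-1 by 0.27 ± 0.26 SE (adjusted p = 0.498). The ratios of Vha100-4, Vha100-5 and Vha68-3 to the main gene of their subunit had SE values from 0.57 to 1.29, against 0.11 to 0.26 for the other ratios.

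Apart from VhaM9.7-a, the 16 tested genes that are widely expressed or in neither list were not called, and their 95% intervals together reached from -0.60 to 0.42, or from 1.51-fold lower to 1.34-fold higher. For 13 of these 16 the whole interval stayed within 0.5 on the log2 scale either way. Coefficients of variation over the 17 genes ran from 2.84 to 18.5% (median 7.04%) in tau libraries and from 5.80 to 27.2% (median 10.1%) in controls. Control C was the highest of the 12 libraries for 10 of the 17 genes. All Vha genes together took 0.395 to 0.461% of a tau library's total and 0.380 to 0.452% of a control's, so the groups overlapped.

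The restricted paralogs ranged from a gene above the median level of all tested genes, VhaM9.7-c at 510 per kb, to genes at 0 in most libraries. The level of VhaM9.7-c is uncertain, because it overlaps Teh2 on the same strand. Of the 15 restricted paralogs, VhaM9.7-c, Vha36-3, Vha100-4, Vha100-5 and Vha68-3 passed the filter, none was called, and 10 fell below it. Vha68-3 (mean 14.4, median 5.97) was inside the limit only through its value of 93.3 in tau B, and Vha100-3 (mean 9.96) was just outside. Vha36-3, a second subunit D gene, was read in every library, from 155 to 250 (median 191) in tau libraries and from 123 to 257 (median 201) in controls. These ranges coincided, with a log2 fold change of 0.02 ± 0.19 SE (adjusted p = 0.982). It made up 11.1 ± 1.26% of subunit D transcripts per length in tau heads and 9.72 ± 2.85% in controls.

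Vha100-4, a further a subunit, ran from 11.5 to 172 (median 96.4) in tau libraries and from 65.4 to 139 (median 76.2) in controls. Its spread was wide within tau, with a log2 fold change of -0.18 ± 0.51 SE (adjusted p = 0.912). The sign rested on tau A: without it the log2 fold change of Vha100-4 was 0.36 (adjusted p = 0.623), and without tau B, control E and control F together it was 0.15 (adjusted p = 0.943). Tau A was the lowest and tau F the highest library for Vha100-4, and the same libraries were lowest and highest for the sum of 5 midgut and Malpighian tubule markers, at 6.41 and 202. In tau F that sum came mainly from alphaTry (110) and betaTry (89.0), while Uro and Jon65Ai were at 0. Other tau libraries did not keep the same order. Vha100-4 was 159 in tau D, 110 in tau E and 76.7 in tau B, where the marker sums were 62.0, 23.4 and 129. The marker sum ran from 48.8 to 118 in controls. The part of gut or tubule RNA in the Vha100-4 values was not tested. Vha100-4 lies 517 bp from Vha100-2 on chromosome 3R.

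Vha100-5 and Vha68-3 were highest in tau B, at 101 and 93.3, where the other tau libraries ran from 0 to 19.6 and from 0 to 22.4. Controls ran from 3.80 to 46.6 for Vha100-5, and control A was the highest control for Vha68-3. Their log2 fold changes of -1.17 ± 0.99 SE (Vha100-5, adjusted p = 0.612) and -0.22 ± 1.28 SE (Vha68-3, adjusted p = 0.963) had intervals too wide to place the difference. Without tau B, control E and control F they were -1.26 for Vha100-5 (adjusted p = 0.568) and -0.50 for Vha68-3 (adjusted p = 0.889). In the libraries of that fit Vha68-3 averaged 5.95, which is under the filter. Vha68-3 lies 178 bp from Vha68-2.

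Several restricted paralogs lie beside a widely expressed gene and still differed far from it in level. Averaged over the 12 libraries, Vha68-2 (chromosome 2L, 12974322 to 12978607, plus strand) stood at 1986 per kb and its neighbour Vha68-3 (12978786 to 12981293, plus strand) at 5.87 per kb. VhaPPA1-1 (chromosome 3R, 14902330 to 14904061, minus strand) stood at 2224 per kb, and VhaPPA1-2, 2052 bp away on the same strand, at 2.96 per kb. The proton ring paralogs Vha16-3 and Vha16-2, 985 bp apart on chromosome 3L, were both low, at 2.46 and 6.20 per kb. VhaM9.7-c and VhaM9.7-a lie 75839 bp apart on 3L, on opposite strands.

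The 10 genes below the filter were Vha14-2, Vha16-2, Vha16-3, Vha16-4, Vha16-5, Vha36-2, Vha100-3, VhaAC39-2, VhaM9.7-d and VhaPPA1-2. Their summed value was 235 in tau B, 160 in control E and 46.6 in control F, the same 3 libraries that listed the fewest genes at 0. In the other 9 libraries the sum ran from 1.03 to 59.9, the highest being control D. Tau B was the highest library for 5 of the 10 and control E for 4. Outside these 3 libraries no value of the 10 genes exceeded 31.3, and 65 of 90 values were 0; a value of 0 allows up to about 3 read pairs, which is 1.94 to 4.49 on this scale depending on the library, and this covers counting error only. Testis markers other than bol reached at most 64.0, the value of can in control E, while bol itself ran from 7069 to 9649 in tau libraries and from 5773 to 9658 in controls. The part of the reads in otherwise silent genes in the values of these paralogs was not tested.

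**Figure D4:**
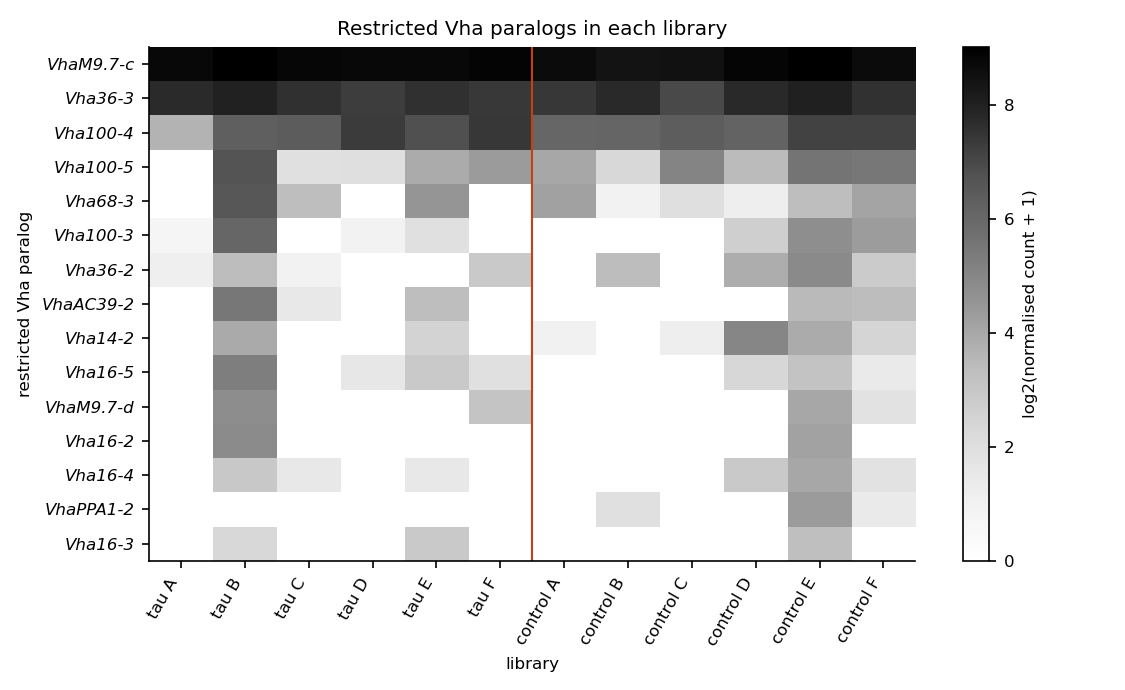
Shade of log2(normalised count + 1) for the 15 restricted Vha paralogs in each tau library (left of the line) and each control library (right). The 3 top rows are filled in every library, while the lower rows are filled mainly in tau B and control E.

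Genes that work with the pump were read from lists beside the Vha genes. Of 6 genes for assembly and regulation, 0 were called in either direction by limma, 0 had an unadjusted p under 0.05, and the median log2 fold change was 0.02. Over all tested genes 3.13% were called lower and 2.1% higher. At an unadjusted p under 0.05, 9.55% were lower and 8.63% higher. The subunits of the RAVE-like complex that joins V1 to V0 gave 0.11 ± 0.08 SE for Rbcn-3A (adjusted p = 0.513) and 0.05 ± 0.09 SE for Rbcn-3B (adjusted p = 0.85). CG5969 gave -0.22 ± 0.13 SE (adjusted p = 0.423) and CG7071 gave 0.05 ± 0.15 SE (adjusted p = 0.908).

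The vesicular transporters, which load transmitters with the proton gradient, were also not called (0 of 5 in either direction). Over all tested genes 3.13% were called lower and 2.1% higher. Of the 5, 1 was lower at an unadjusted p under 0.05, where 9.55% of all tested genes were lower. All 5 log2 fold changes were below 0 (median -0.13), as were 48.6% over all tested genes. That of Vmat was -0.00136 ± 0.09 SE. That of VAChT was 0.04 with libraries rescaled to equal totals. The lowest log2 fold change of the 5 was that of prt, a transporter known from mushroom body neurons in flies. The values of prt ran from 37.3 to 145 (median 80.2) in tau libraries and from 132 to 232 (median 151) in controls. Its groups overlapped only through tau B, with a log2 fold change of -1.06 ± 0.30 SE (adjusted p = 0.0556). Without tau B it was called at -1.24 (adjusted p = 0.0216), and without tau B, control E and control F together it was not (-1.26, adjusted p = 0.089). VGAT, the GABA transporter, gave -0.19 ± 0.10 SE (adjusted p = 0.34), VGlut, the glutamate transporter, -0.13 ± 0.10 SE (adjusted p = 0.564), and VAChT, the acetylcholine transporter, -0.07 ± 0.11 SE (adjusted p = 0.813).

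Among enzymes and membrane proteins of the lysosome, the compartment the pump acidifies, 3 of 16 tested genes were called lower, 0 were called higher, and 14 of 16 log2 fold changes were below 0 (median -0.44). Over all tested genes 3.13% were called lower, and 48.6% of log2 fold changes were below 0. LManII, a lysosomal alpha-mannosidase, ran from 10942 to 14829 (median 12068) in tau libraries and from 16365 to 25014 (median 21095) in controls, without overlap. Its log2 fold change in limma was -0.77 ± 0.11 SE (adjusted p = 0.000716). The hexosaminidase genes Hexo1 and Hexo2 were also lower in every tau library, at -0.53 ± 0.14 SE (adjusted p = 0.0377) and -0.70 ± 0.19 SE (adjusted p = 0.047). Both calls were near the threshold. Hexo1 lost its call without any one of tau A, B, C, E or F or control A, C, E or F (adjusted p up to 0.0797), and Hexo2 without any one of tau A, B, C, E or F or control A, D or E (adjusted p up to 0.0941). Without tau B, control E and control F together, LManII stayed called at -0.69 (adjusted p = 0.0153), and Hexo1 and Hexo2 did not (adjusted p = 0.149 and 0.127). CtsL1, a cathepsin, was not called at -0.59 ± 0.20 SE (adjusted p = 0.108), but was called without control B (-0.69, adjusted p = 0.0472). It was also called with tau and control libraries of the same letter taken as pairs (limma, adjusted p = 0.00176).

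The summed lysosomal genes ran from 62553 to 86228 in tau libraries and from 78932 to 127830 in controls, so these sums overlapped. The haemocyte marker sum was lower in every tau library. The summed fat body markers, which include the female markers Yp1, Yp2, Yp3 and fit, ran from 554758 to 1464360 in tau libraries and from 766329 to 2446280 in controls. The part of these cell types, or of the share of females in a pool, in the lysosomal values was not tested. Whether the Vha genes and the lysosomal genes differ in their response was also not tested.

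**Figure D5:**
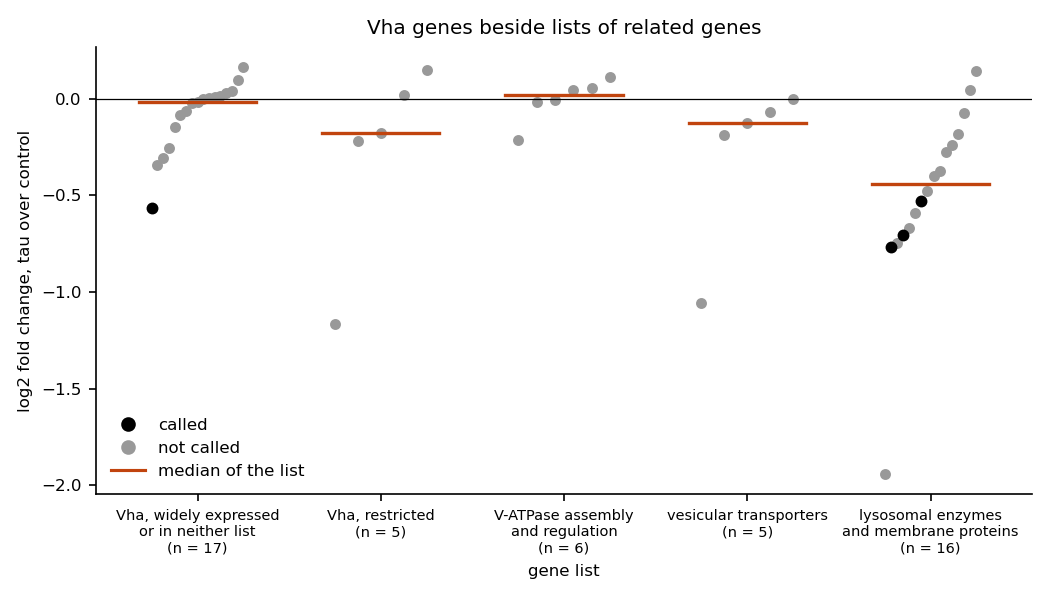
Log2 fold change of tau over control for each tested gene of the Vha lists and of the lists of related genes, with called genes in black and the list median as a bar. The Vha genes that are widely expressed or in neither list centre on a median of -0.02, and the lysosomal list on -0.44 with 3 called genes.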

How the data were processed

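The members and the gene lists were chosen with earlier results of these data known. Per the submitters' processing notes, the tools were Trimmomatic 0.36 for trimming, FastQC, Salmon 0.13.1 for quantification and DESeq2 1.24, with build dm6. The table holds a signal for each gene and library, which the authors deposited as DESeq2-normalised gene counts, per the file headers and name. Per the file headers, 2 lanes were joined per library. The annotation, the strand setting and how reads shared by paralogs were divided were not given in the sources used here. Whole reads could not be recovered, so no count model was used, and depth was estimated from where the lowest values piled up.

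Symbols and exon lengths came from an Ensembl annotation with dm6 coordinates and a gene name table, which named 13432 of 13515 rows. Values were analysed as log2(value + 1), which understates the fold changes of low genes, for the 10845 genes with a mean of at least 10. The fit used limma 3.58.1 under R 4.3.3 (functions lmFit and eBayes, with a variance trend, no covariate, two-sided, Benjamini-Hochberg over all tested genes), after a test on simulated data. For limma fold changes, SE is the moderated standard error. For differences of paralog ratios, SE comes from the variances of both groups, without moderation. For subunits with several tested genes, each other gene was divided by the most abundant one within each library, and the 9 log2 ratios were compared by exact two-sided permutation tests over the 12 libraries, adjusted over the 9. P-values weigh the difference between genotypes against the variation between pools. Every Vha gene is named, and of each list of related genes the 4 with the smallest adjusted p. Alternatives changed the pseudocount, filter, scaling, variance model and gene length, added a replicate block or array weights, and left out libraries.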

Additional observations from a re-analysis of the deposited data

Results flagged for a closer look

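In each group of 6 libraries, the highest and the lowest value was set against its gap to the nearest other library, as a share of the group's range, with Dixon's critical value as the limit. This marked 12 of 80 groups, 7 of them among 44 groups of Vha genes, where chance marks about 1 in 20. Control C gave 6 of the 12 marks, tau A and tau B 2 each, and tau D and control B 1 each.

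Among Vha genes of the V1 sector, Vha55 was 11806.9 in tau D, below the other tau libraries at 12737 to 13291. VhaSFD was 2469.1 in tau A, below the others at 2803 to 2988. Vha36-1 was 2288.44 in control C, above the other controls at 1316 to 1619. Vha68-3 was 93.3331 in tau B, where the other tau libraries reached at most 22.4.

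In V0 and the accessory subunits, Vha100-5 was 100.812 in tau B, where the other tau libraries reached at most 19.6. VhaAC45RP stood out in both groups: it was 3411.73 in tau A (other tau values 2822 to 3035) and 5809.13 in control C (other control values 3059 to 3809).

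Of the related genes, control C was high for prt at 232.35 (others 132 to 162), Hexo1 at 2256.22 (others 1193 to 1565), Hexo2 at 5360.56 (others 1970 to 2454) and fit at 10692.1 (others 1820 to 3909). VGAT was 1104.48 in control B, above the other controls at 832 to 905.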

How the results depend on the processing

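The count of Vha genes higher in tau was 0 under every alternative. The count lower in tau was 1 (VhaM9.7-a) under every alternative, including each library left out in turn (1 throughout), except without tau B, control E and control F together, an alternative chosen after seeing the data, where it was 0; that fit has fewer libraries and called 126 genes higher and 155 lower in all. The number of paralog ratios that passed was 2 with a mean of at least 100, where 6 ratios were tested and VhaAC45RP over VhaAC45 also passed (exact permutation test, adjusted p = 0.039). Leaving out single libraries it ran from 1 to 2, the 2 without tau A. It was 0 without tau B, control E and control F, where the smallest exact p is 0.0159 and VhaM9.7-a over VhaM9.7-b had an adjusted p of 0.143. A single ratio at that smallest p cannot pass the adjustment over 9, so this 0 does not show that the difference was lost.

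Over all tested genes the library letters did not meet the criterion for pairs: correlations of the deviations of same-letter libraries ran from -0.23 to 0.14, 1 of 6 was over 0.1, and 2 of 6 tau libraries correlated best with the control of their own letter. With the letters as a replicate block, limma called 232 genes higher and 467 lower, VhaM9.7-a among those lower (adjusted p = 0.0184). In a sign-flip test, 0 paralog ratios passed (adjusted p = 0.141 for VhaM9.7-a over VhaM9.7-b). The smallest exact p of that test is 0.0312, at which a single ratio cannot pass the adjustment over 9, so this 0 does not show that the difference was lost. For some genes the letters did move together: the block brought CtsL1 (adjusted p = 0.00176), Yp1 (0.0247), Yp2 (0.00305) and Yp3 (0.0178) past the threshold, and the SE of CtsL1 was 0.088 with it and 0.20 without.

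Rescaling libraries to equal totals moved the median of all genes to 0.11 on the log2 scale and that of Vha genes to 0.08, and called 525 genes higher and 262 lower against 228 and 339; VhaM9.7-a was then at -0.46 (adjusted p = 0.0338). Signs of uncalled genes near 0 depend on this scaling. Of 481 alternatives for single Vha genes, 480 left the call as it was, 1 ended it and 0 reversed it. Among restricted paralogs, low values limit what could be detected.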
